A study of Homo sapiens with 6 samples.

Results

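The mitochondrial ribosomal proteins were taken as all gene symbols that begin with MRPL or MRPS followed by a digit, which gave 81 of the 23180 gene symbols of the count table. Of these 81 symbols, 77 were protein-coding and 4 were pseudogenes or an antisense transcript. Expression was high enough for testing in 79 of them, including all 77 protein-coding members. MRPL symbols (48 protein-coding members) name proteins assigned to the large ribosomal subunit and MRPS symbols (29) name those assigned to the small subunit.

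Mitochondria translate the few proteins encoded by their own DNA on a dedicated ribosome. These proteins are core subunits of the respiratory chain complexes and of the ATP synthase. The RNAs of the mitochondrial ribosome are transcribed inside the organelle, whereas all of its proteins are encoded in the nucleus, made on cytosolic ribosomes and imported. Some of these proteins have counterparts in bacterial ribosomes, and others occur only in mitochondria.

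RNA-Seq was performed on total RNA of A549 cells, an established human lung adenocarcinoma line without an engineered change (labelled WT, passage 11). Cells were transfected for 3 days with 65 nM of siControl or of siKMT9α#1, an siRNA directed to KMT9α, the catalytic subunit of a histone methyltransferase, which the table lists under its gene symbol N6AMT1. Each group had 3 biological replicates, and the sources used here do not say whether these were separate cultures, so p-values measure the spread between these samples. A single siRNA was sequenced, so effects of its sequence and effects of its target cannot be told apart.

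The estimated counts per sample, with 1 transcript per gene, summed to between 13740101 and 19832399. N6AMT1 was present at 10.2, 10.8 and 11.5 CPM (counts relative to the library size, scaled by the TMM method) in siControl and at 2.87, 3.22 and 3.35 CPM in siKMT9α#1, a log2 fold change of -1.77 (SE, the standard error, 0.12, adjusted p = 1.42e-10). All 6 epithelial and A549 markers checked were expressed, and 5 of them were lower after knock-down (KRT8, a keratin, went from 1281 to 528 CPM). PTPRC, CD3E, PECAM1, COL1A2 and COL3A1, which mark immune, endothelial and stromal cells, were at or near 0, while the lysosomal protein gene CD68 was at 80.6 and 27.9 CPM. Of 13877 genes tested, 38.5% were lower and 37.1% higher after knock-down at an adjusted p under 0.05 (edgeR quasi-likelihood test, Benjamini-Hochberg adjustment). The groups did not overlap in 77% of the genes tested. The median log2 fold change of all genes was -0.01.

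Promoter sequences are shown for 4 members with large changes, so that the letters read by known regulators of mitochondrial genes can be compared between members that fell and a member that rose. The windows come from RefSeq (GRCh38.p14) and run from 250 bases before to 50 bases after a transcription start. MRPL53 (chr2:74472631-74472930, minus strand), MRPS18A (chr6:43687742-43688041, minus strand) and MRPL19 (chr2:75646533-75646832, plus strand) were lower after knock-down, and MRPS6 (chr21:34073328-34073627, plus strand) was higher. Capitals mark matches, on either strand, to CCGGAAG (bound by ETS factors such as GABP), CGCANGCGC (bound by NRF1) or AAGATGGCG (bound by YY1). AAGATGGCG contains the letters of a start codon, so a match near a transcription start may lie over the first codon.
MRPL53: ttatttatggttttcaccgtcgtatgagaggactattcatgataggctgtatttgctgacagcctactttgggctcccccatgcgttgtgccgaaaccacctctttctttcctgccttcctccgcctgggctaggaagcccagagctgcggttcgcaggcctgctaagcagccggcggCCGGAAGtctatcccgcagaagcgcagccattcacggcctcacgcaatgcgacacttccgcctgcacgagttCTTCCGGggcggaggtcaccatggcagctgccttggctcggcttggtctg
MRPS18A: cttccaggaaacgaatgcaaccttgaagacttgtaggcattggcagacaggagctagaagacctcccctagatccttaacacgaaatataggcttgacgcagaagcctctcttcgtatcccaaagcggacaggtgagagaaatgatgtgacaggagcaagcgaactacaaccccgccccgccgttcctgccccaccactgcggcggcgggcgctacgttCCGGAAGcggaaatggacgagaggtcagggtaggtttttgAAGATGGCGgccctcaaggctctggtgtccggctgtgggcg
MRPL19: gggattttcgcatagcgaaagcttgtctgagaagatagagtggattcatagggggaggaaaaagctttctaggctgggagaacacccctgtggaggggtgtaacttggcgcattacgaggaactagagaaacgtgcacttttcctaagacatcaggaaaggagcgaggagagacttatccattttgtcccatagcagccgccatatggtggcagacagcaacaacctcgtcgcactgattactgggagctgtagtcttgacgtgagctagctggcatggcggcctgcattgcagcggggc
MRPS6: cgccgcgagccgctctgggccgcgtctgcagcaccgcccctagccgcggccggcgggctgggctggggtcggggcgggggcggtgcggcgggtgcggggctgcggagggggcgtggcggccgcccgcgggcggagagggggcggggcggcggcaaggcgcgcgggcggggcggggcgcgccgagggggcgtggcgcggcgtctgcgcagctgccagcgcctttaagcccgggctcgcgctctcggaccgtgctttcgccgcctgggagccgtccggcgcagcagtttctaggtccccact

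In these windows, MRPL53 held 2 matches to the ETS letters, MRPS18A held 1 match to the ETS letters and 1 to the YY1 letters, and MRPL19 and MRPS6 held no match. The window of MRPL1, a further member that was higher, is not shown and held no match either. A window was found for 68 of the 77 protein-coding members and for 10314 of all genes tested. The ETS letters were present in windows of 29 of 68 members (42.6%), compared with 21.5% of all genes tested. The YY1 letters were present in 13 members (19.1%), compared with 4.61% of all genes tested. Among members with lower mRNA, 24 of 48 held the ETS letters and 10 of 48 the YY1 letters. Of the 15 members called neither lower nor higher, 5 held the ETS letters and 3 the YY1 letters. None of the 5 members with higher mRNA and a window held either, but 5 genes are too few for a comparison of shares. MRPL15, the member with the largest increase, had no window. The NRF1 letters were found in 12 of 68 members (17.6%), near the 16.7% of all genes tested. With a further G in front of the NRF1 letters, the counts were 9 of 68 members (13.2%) and 12.9% of all genes. These are descriptions of letters in windows of fixed length, and binding was not measured in these samples.

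Most mitochondrial ribosomal protein mRNAs were lower after knock-down of KMT9α. Of the 77 protein-coding members, 53 were lower (68.8%, compared with 38.5% of all genes), 7 were higher (9.09%, compared with 37.1% of all genes), and 17 were called neither. The median log2 fold change of the members was -0.35, with quartiles of -0.58 and -0.10, and 61 members were below 0. Single members spanned log2 fold changes from -1.76 to 1.16. Under a stricter rule (unadjusted p under 1e-08 and an absolute log2 fold change above 0.26), 23 members were lower and 3 higher, compared with 10.7% and 13.5% of all genes. The count of lower members under this rule was 11 without siKMT9α#1 replicate 2 and with the replicate block, 13 without siControl replicate 2 and with the length offset, and 38 with the likelihood-ratio test or no filter. The share of all genes under this rule was not computed for these settings, so these counts cannot be set against it. The 3 siControl and 3 siKMT9α#1 values did not overlap in 59 of the 77 members, a share near the 77% of all genes. The median was -0.46 on library size alone and -0.15 with an offset for transcript length, which is described with the lengths. In a bulk sample, fewer expressing cells and less mRNA per cell cannot be told apart.

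**Figure D1:**
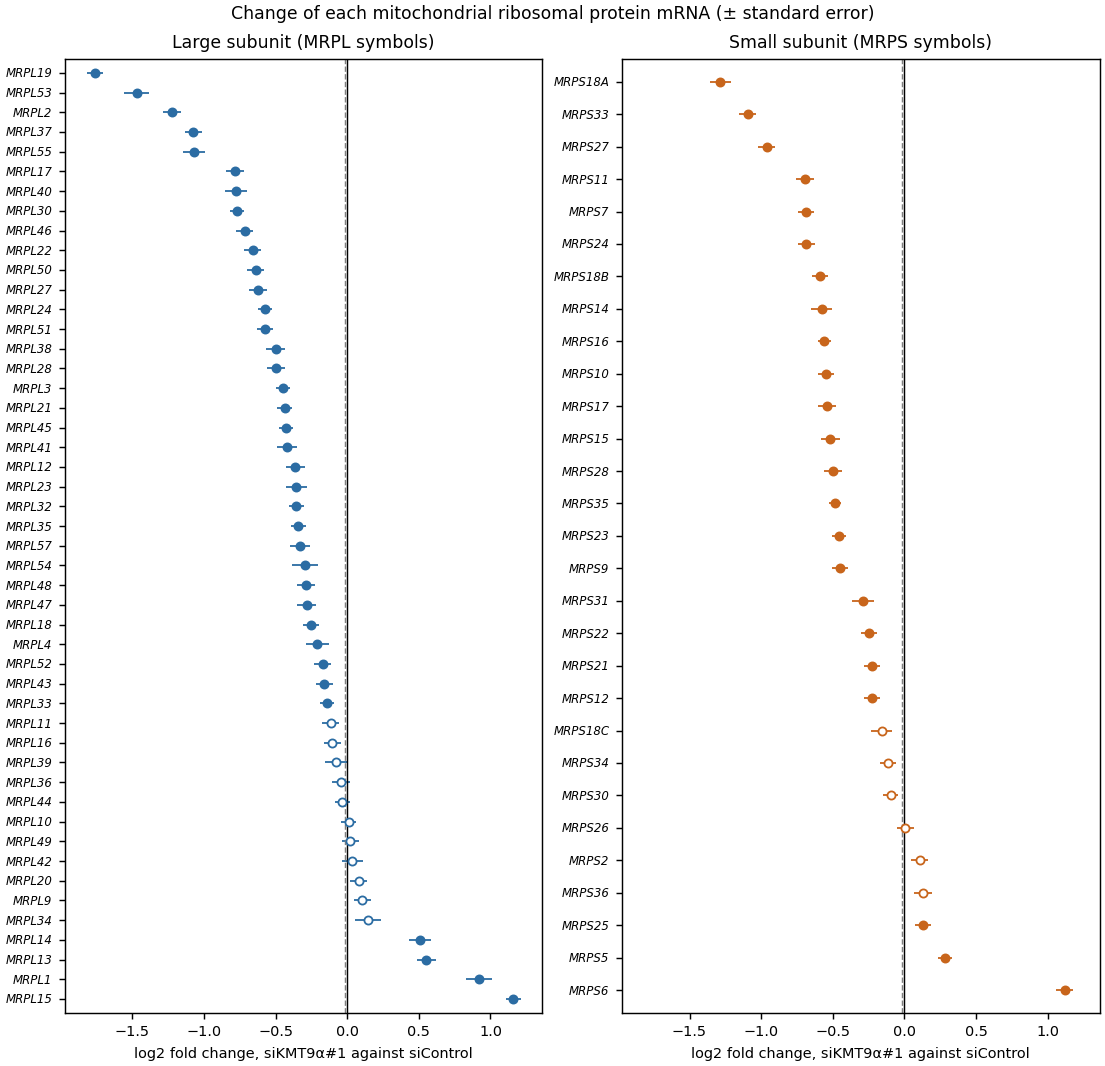
Log2 fold change (siKMT9α#1 against siControl) of each of the 77 protein-coding members, ordered by size in the large subunit (left, 48) and the small subunit (right, 29). Points are edgeR estimates and bars standard errors; filled points have an adjusted p under 0.05, and the dashed line is the median of all genes (-0.01). Most points lie left of 0, from MRPL19 at -1.76, and 7 filled points lie right of it, up to MRPL15 at 1.16.

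The summed level of the members showed the same direction in every sample. In siControl it was 5773, 6075 and 5947 CPM, and in siKMT9α#1 it was 4817, 4860 and 4517 CPM. The groups did not overlap, and the mean fell from 5932 ± 152 to 4731 ± 187 CPM (SD, n = 3), a ratio of 0.798. Without TMM scaling, the members made up 0.615% ± 0.018 of the counts of a siControl sample and 0.456% ± 0.018 of those of a siKMT9α#1 sample (SD, n = 3). The median log2 level of the members relative to their siControl mean was -0.34, -0.33 and -0.39 in the 3 siKMT9α#1 samples. In the siControl samples it was -0.04, 0.04 and -0.00, so the siControl samples differed from each other by far less than the groups did.

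**Figure D2:**
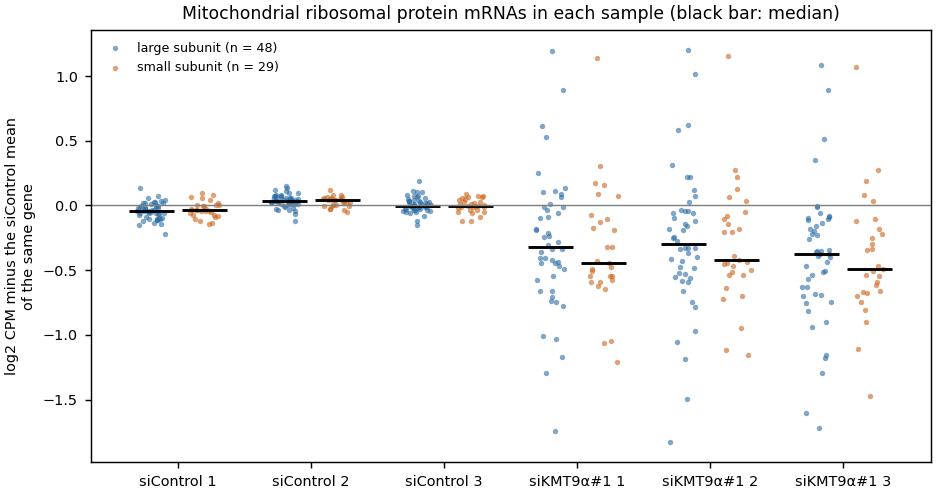
Log2 CPM of each protein-coding member minus its siControl mean, in each of the 6 samples. Points are members of the large (48) and small (29) subunit, and black bars are medians; the medians lie near 0 in siControl and below 0 in every siKMT9α#1 sample, where the small subunit sits lower than the large one.

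The decrease was found in both subunits. Of 48 large subunit members, 33 were lower and 4 higher, and the median was -0.34 on the log2 scale. Of 29 small subunit members, 20 were lower and 3 higher, with a median of -0.46. The summed large subunit mRNAs fell from 3495 ± 97.4 to 2825 ± 127 CPM (ratio 0.808), and the summed small subunit mRNAs from 2436 ± 54.1 to 1907 ± 59.5 CPM (ratio 0.783; SD, n = 3). The ratio of large to small subunit was 1.43, 1.44 and 1.44 in siControl and 1.49, 1.49 and 1.46 in siKMT9α#1, so these groups did not overlap either. Single members weigh on this ratio. The large subunit sum includes MRPL15, which rose from 66.2 to 148 CPM, and the small subunit sum includes MRPS6, which rose from 25.9 to 56.3 CPM. The ratio was not computed without these members, so it does not show a shift of the whole subunit. The difference of the subunit medians (large minus small) was 0.12. Within the subunits the quartiles were -0.59 and -0.07 (large) and -0.58 and -0.11 (small). The shares called lower were alike, at 68.8% and 69.0%, and the difference between the subunits was not tested. Structures of the mitochondrial ribosome place the proteins of MRPS18A and MRPS30 in the large subunit. The protein of MRPS36 is assigned to the 2-oxoglutarate dehydrogenase complex and was left out. With this assignment the medians were -0.34 for 50 large subunit members and -0.47 for 26 small subunit members.

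Members were also grouped by whether the protein is classed as having a counterpart in bacteria, with the subunits assigned by structure and MRPS36 left out. MRPS18A and MRPS18B were counted as mitochondrion-specific, although their paralog MRPS18C was counted as conserved. The 45 conserved proteins were at -0.35 in the median on the log2 scale. Of these, 30 were lower (66.7%) and 6 higher (13.3%), compared with 38.5% and 37.1% of all genes. The 31 proteins classed as mitochondrion-specific had a median of -0.42, with 23 lower (74.2%) and 1 higher (3.23%). Among conserved proteins, the medians were -0.28 for 29 of the large subunit (18 lower, 62.1%, and 4 higher, 13.8%) and -0.51 for 16 of the small subunit. Among mitochondrion-specific proteins, they were -0.42 for 21 of the large subunit and -0.37 for 10 of the small subunit. With offsets for length and GC content, the conserved large subunit proteins had a median of -0.09, with 12 of 29 lower and 9 higher. Under these offsets 38.7% of all genes were lower and 38% higher. The other 3 medians were -0.33, -0.29 and -0.20 in the order given. No difference between these groups was tested.

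The largest decrease was that of MRPL19, a conserved protein of the large subunit (hg19 chr2:75873909-75889334). MRPL19 was measured at 90.1, 94.8 and 94.7 CPM in siControl and at 27.8, 26.2 and 28.3 CPM in siKMT9α#1. These groups lay far apart, with a log2 fold change of -1.76 (SE 0.06, adjusted p = 1.65e-15). Next was MRPL53, a mitochondrion-specific protein of the large subunit (hg19 chr2:74699085-74699942), at 38.6, 44.6 and 44.8 CPM in siControl and 17.3, 15.1 and 13.99 CPM in siKMT9α#1. The lowest siControl value of MRPL53 was above its highest siKMT9α#1 value, and its log2 fold change was -1.47 (SE 0.08, adjusted p = 7.19e-12). MRPS18A was at 50.7, 51.8 and 50.3 CPM in siControl and at 21.99, 22.8 and 18.4 CPM in siKMT9α#1. The groups were again separate, with a log2 fold change of -1.29 (SE 0.07, adjusted p = 5.96e-12).

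MRPL2, a conserved protein next to the peptidyl transferase centre, fell from 51.9 ± 1.33 to 22.3 ± 0.996 CPM (SD, n = 3), a log2 fold change of -1.22. The small subunit members MRPS33 and MRPS27, both mitochondrion-specific, fell from 79.1 ± 4.74 to 37.1 ± 0.963 CPM and from 69.5 ± 1.92 to 35.5 ± 2.07 CPM. Their log2 fold changes were -1.09 and -0.96. MRPS27 belongs to the pentatricopeptide repeat proteins, a family of RNA-binding proteins. In the large subunit, MRPL37 (-1.07), MRPL55 (-1.07), MRPL17 (-0.78) and MRPL40 (-0.78) completed the 10 largest decreases. Of these 4 genes, MRPL17 was the most abundant, at 161 ± 6.16 CPM in siControl and 94.1 ± 9.12 CPM in siKMT9α#1 (SD, n = 3). All 10 had adjusted p-values of 3e-08 or less and groups that did not overlap.

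A few members changed in the opposite direction. MRPL15, a conserved large subunit protein, was at 66.8, 63.2 and 68.7 CPM in siControl and at 151, 152 and 141 CPM in siKMT9α#1. Every siKMT9α#1 sample was above every siControl sample, with a log2 fold change of 1.16 (SE 0.05, adjusted p = 1.93e-13). MRPS6, a conserved small subunit protein (hg19 chr21:35445823-35515334), was at 24.6, 26.0 and 27.1 CPM in siControl and at 56.9, 57.6 and 54.3 CPM in siKMT9α#1. Its log2 fold change was 1.12 (SE 0.06, adjusted p = 3.76e-12). The span of MRPS6 overlaps that of SLC5A3, an inositol transporter gene, and as the strand setting of the counting is not given in the sources used here, reads of the overlap cannot be assigned with certainty. MRPL1, which forms the mobile stalk at the tRNA exit, rose from 12.3 ± 1.44 to 23.4 ± 1.21 CPM (SD, n = 3), a log2 fold change of 0.92.

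MRPL13 and MRPL14, conserved large subunit proteins, rose by log2 fold changes of 0.55 and 0.51, and MRPS5, a conserved small subunit protein, by 0.28. Their groups did not overlap, and their adjusted p-values were 3.51e-07, 4.69e-06 and 2.4e-05. The seventh higher call, MRPS25, was the smallest, with a log2 fold change of 0.13 and groups that overlapped (64.1 to 68.4 CPM against 67.7 to 75.5 CPM). MRPS25 was not called on library size alone (0.02), with the replicate block (adjusted p = 0.0755) or with DESeq2 (adjusted p = 0.0568), and its sign turned with offsets for length and GC content (-0.01). Its span also overlaps that of NR2C2.

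**Figure D3:**
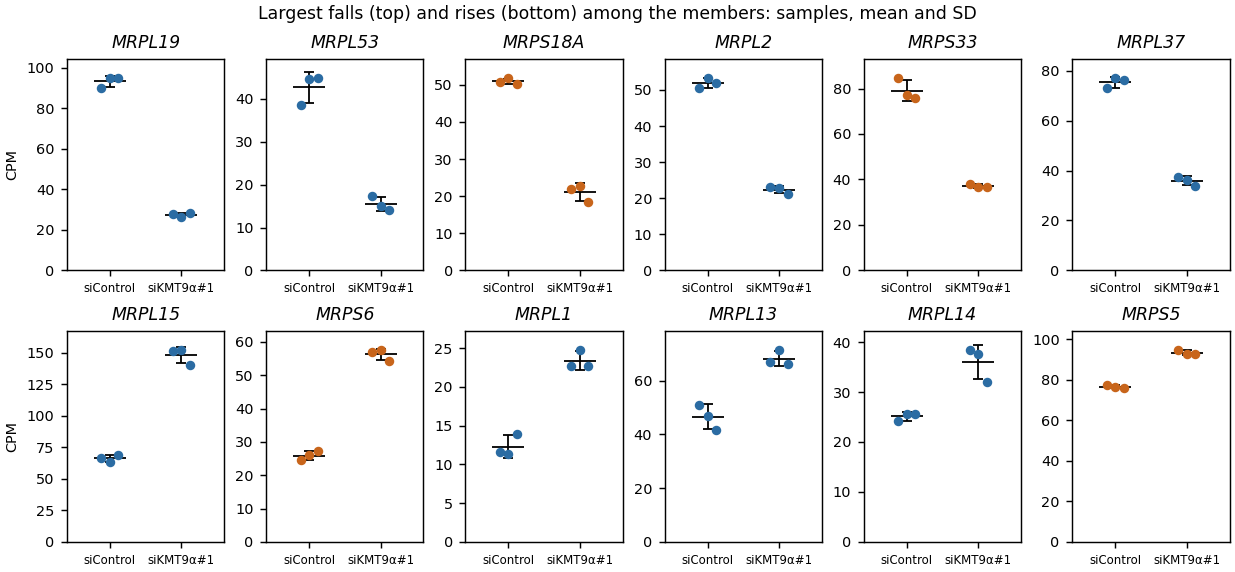
CPM of the 6 members with the largest decreases (top) and the 6 with the largest increases among non-overlapping groups (bottom), with 3 samples per group as points, the mean as a horizontal line and the SD as a bar, and axes from 0. MRPL19 falls from about 93.2 to 27.4 CPM and MRPL15 rises from 66.2 to 148 CPM, and in each panel the groups do not overlap.

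Abundance was compared per kilobase of transcript. In siControl the protein-coding members ranged from 9.17 (MRPL1) to 450 CPM per kb (MRPL33), with a median of 46.8, compared with 7.53 for all genes. The 5 most abundant members per kb, MRPL33, MRPL51, MRPL12, MRPS35 and MRPS12, were all lower after knock-down. With offsets for length and GC content, MRPL33 (0.05) and MRPS12 (0.01) were no longer lower, and MRPL12 was at -0.11. MRPL33, a conserved protein of the large subunit, went from 450 ± 11.98 to 407 ± 20.4 CPM per kb (SD, n = 3; log2 fold change -0.14, adjusted p = 0.0136). MRPL51 went from 193 ± 3.64 to 130 ± 9.46 CPM per kb and MRPS35 from 145 ± 0.721 to 104 ± 1.66 CPM per kb, log2 fold changes of -0.57 and -0.48. MRPL12, of the stalk that recruits translation factors, went from 155 ± 12.3 to 121 ± 11.5 CPM per kb (log2 fold change -0.36). MRPS12, a protein of the decoding centre, went from 139 ± 6.41 to 119 ± 8.73 CPM per kb (log2 fold change -0.22). In siControl, MRPL12 and MRPS35, and likewise MRPS35 and MRPS12, differed by less than the larger SD of the pair, whereas MRPL33 stood well above the rest.

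The 3 MRPS18 genes are paralogs that differed in their change. MRPS18A fell the most, as given above. MRPS18B went from 94.2 ± 2.90 to 62.7 ± 3.40 CPM (SD, n = 3), a log2 fold change of -0.59 with groups that did not overlap. MRPS18C had a log2 fold change of -0.16 and missed the threshold (adjusted p = 0.052), with overlapping groups and a span that overlaps FAM175A. MRPS30, which like MRPS18A sits in the large subunit, had a log2 fold change of -0.10 (adjusted p = 0.0989), and MRPS36 one of 0.13 (adjusted p = 0.0686). All 17 members called neither lower nor higher had log2 fold changes between -0.16 and 0.15.

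Of the members without a protein-coding transcript, MRPL45P2 was at 5.03 ± 0.457 CPM in siControl and 4.37 ± 0.284 CPM in siKMT9α#1 (SD, n = 3; adjusted p = 0.171). MRPS31P5 was at 3.40 ± 0.422 and 3.58 ± 0.357 CPM (SD, n = 3; adjusted p = 0.573). Such pseudogenes can share reads with their parent genes, so their values are uncertain. MRPL23-AS1 and MRPL42P5 were too low for testing, at no more than 21.5 and 8.5 counts in any sample.

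Transcript length was examined as a planned check, and length and fold change were related across all genes in these samples. Over 13877 genes, log2 fold change and log2 length had a Pearson correlation of 0.13 and a Spearman correlation of 0.20, as a description of genes that share the same 6 libraries. The members are short, with a median length of 1175 bases compared with 2922 for all genes. Among the 77 members themselves the correlations were -0.08 and 0.03. In members of 511 to 993 bases the median log2 fold change was -0.43, compared with -0.24 for all genes of those lengths, of which 52.9% were lower. From 998 to 1490 bases the medians were -0.25 for members and -0.21 for all genes, of which 49.2% were lower. From 1498 to 7816 bases they were -0.38 for members and 0.00 for all genes, of which 37.6% were lower. The last range is wide and its members are at its short end, so each member was also set against the median of all genes in its own of 20 length bins. Of the 77 members, 52 were below that median, with a median difference of -0.23. The median difference was -0.30 in the shortest, -0.03 in the middle and -0.29 in the longest of the 3 ranges. Within the members alone, the small subunit median was lower than that of the large subunit in each of the 3 length ranges (-0.52 and -0.36, -0.27 and -0.17, and -0.52 and -0.34). These medians rest on only 7, 12 and 10 small and 19, 13 and 16 large subunit members. Against the 20 length bins, the median difference was -0.26 for the small and -0.18 for the large subunit.

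A per-sample offset for length reduced the decrease of the members but left it in place for most of those called. With this offset 39 of the 53 lower calls and 6 of the 7 higher calls remained, 10 further members became higher (16 in all), and the median was -0.15, with 38.2% of all genes lower and 37.7% higher. Among the called members, MRPL33, MRPL43 and MRPL52 changed sign under it, to 0.06, 0.06 and 0.02. For MRPL43 this holds for the transcript used, as its 4 transcripts ranged from -0.39 to -0.16 without an offset. An offset for both length and GC content gave 39 lower, 17 higher and a median of -0.11, with 38.7% of all genes lower and 38% higher. The difference between the subunit medians was 0.14 with the length offset and 0.19 with both. The largest changes kept their direction with the length offset. MRPL53 (-1.25) and MRPS18A (-1.09) were smaller in size than without it, and MRPL19 (-2.04), MRPL15 (1.32) and MRPS6 (1.34) were larger. The part that length has in the decrease was not tested beyond these values.

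**Figure D4:**
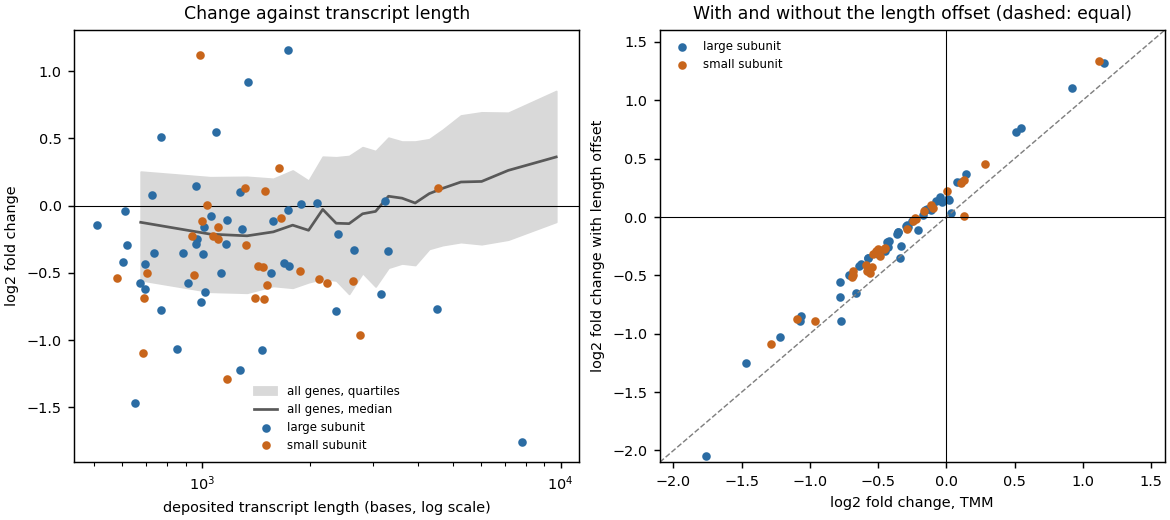
Left, log2 fold change of the members against transcript length in bases (log scale), over the median and quartiles of all genes in 20 length bins. Right, log2 fold change of each member with TMM factors against that with the length offset, where most points lie above the line of equality, as the median moves from -0.35 to -0.15.

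Proteins of the mitochondrial ribosome with other gene symbols were compared next. Of 6 such genes, 5 were lower after knock-down (83.3%, compared with 38.5% of all genes). DAP3, a GTP-binding protein of the small subunit, went from 190 ± 3.55 to 150 ± 1.27 CPM (SD, n = 3; log2 fold change -0.34). AURKAIP1 (-0.50) and CHCHD1 (-0.24) of the small subunit and GADD45GIP1 (-0.37) and ICT1 (-0.49), a peptidyl-tRNA hydrolase of the large subunit, were lower as well. PTCD3 of the small subunit was at 111 CPM in both groups (log2 fold change -0.00, adjusted p = 0.936). With offsets for length and GC content, CHCHD1 (-0.04) and GADD45GIP1 (-0.12) were no longer called and PTCD3 was lower (-0.24).

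Other genes of mitochondrial gene expression moved in both directions. Of 25 assembly factors, 12 were lower (48%) and 6 higher (24%), compared with 38.5% and 37.1% of all genes. Their median log2 fold change was -0.14, with the pseudouridine synthase-like RPUSD3 at -1.38 and the GTPase MTG2 at 0.64. Of 15 translation factors, 6 were lower and 4 higher (median -0.07), with log2 fold changes between -1.07 and 0.64, and the share that was lower was near the 38.5% of all genes. Of 17 mitochondrial aminoacyl-tRNA synthetases, 8 were lower (47.1%) and 5 higher (29.4%; median -0.12), from TARS2 at -1.40 to HARS2 at 0.93. Of 5 genes of mitochondrial transcription, 4 were lower, led by the elongation factor TEFM at -0.57, but their median was only -0.13. With offsets for length and GC content, 1 of these 5 was lower.

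None of 8 regulators of mitochondrial biogenesis was lower, compared with 38.5% of all genes. Higher were 4 (50%, compared with 37.1% of all genes), namely PPARGC1B (1.21), MYC (0.96), PPRC1 (0.79) and GABPB1 (0.42). These regulators are long, with a median length of 4326.5 bases. With offsets for length and GC content the 4 were at 0.77, 0.99, 0.64 and 0.48, and all remained higher. GABPA, the DNA-binding subunit of GABP, had a log2 fold change of -0.03, and NRF1 one of 0.19, and neither passed the threshold. The cytosolic ribosomal proteins differed from the mitochondrial ones. Of 81 cytosolic ribosomal protein genes tested, 11 were lower (13.6%, compared with 38.5% of all genes). A further 42 were higher (51.9%, compared with 37.1% of all genes), and the median log2 fold change was 0.13. These genes are short, with a median length of 708 bases, and their values with length offsets are not given here.

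**Figure D5:**
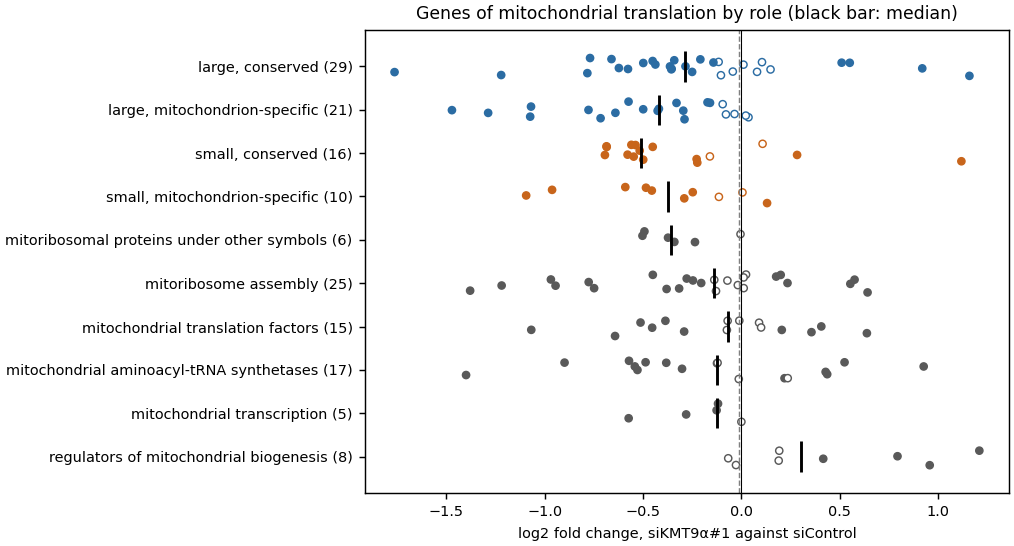
Log2 fold change (siKMT9α#1 against siControl) of the members, by subunit and conservation, and of the other gene groups of mitochondrial expression, with the number of genes tested in brackets. Subunits of the members are assigned by structure, and MRPS36 is left out. Filled points have an adjusted p under 0.05, black bars are medians and the dashed line is the median of all genes; the 4 member groups have medians between -0.28 and -0.51, and the regulators a median of 0.30.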

How the data were processed

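RNA-Seq of 6 A549 samples, 3 with siControl and 3 with siKMT9α#1, was analysed. The authors aligned reads to hg19 with STAR (2.5 in the submitters' processing notes), counted RefSeq transcripts with HOMER and deposited estimated counts per transcript, not normalized. Counting options, strand and library type are not given in the sources used here. Of the deposited values, 36.4% were not whole. The deposited table also holds the authors' fold change and p-value columns, which were not used.

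Of 38767 entries, 1182 without symbol and counts were left out. Each of the 23180 symbols was represented by the transcript with the largest summed count, and 124 transcripts belonged to members. Counts were rounded and analysed with edgeR 4.0.16 (R 4.3.3; TMM, filterByExpr, two-sided quasi-likelihood F test, Benjamini-Hochberg adjustment over 13877 genes). The biological coefficient of variation was 4.47%. CPM were TMM-scaled. For single genes a two-sided exact permutation test of 3 against 3 cannot give a p below 0.1. The fit was tested on simulated data. GC content came from a GRCh37 annotation (98.8% of genes tested). No per-sample column lacked a sample.

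The members and gene lists were chosen with earlier results of these data known. The rule for named genes took N6AMT1, the 10 largest decreases and 6 largest increases among called members with non-overlapping groups, the 5 most abundant per kb, MRPS18A, MRPS18B, MRPS18C, MRPS30, MRPS36, members without a protein-coding transcript, mitoribosomal proteins under other symbols, and the largest fall and rise of each other list. The translation factors are given by their range, and their largest fall is not named here. After values were seen, MRPS18B was moved to the mitochondrion-specific and MRPS28 to the conserved proteins, after the names mS40 and bS1m. Other genes, such as MRPS25, MRPL36, MRPL43, MRPL52, MRPS34, MYC, PPRC1, GABPB1, GABPA and NRF1, were named after their values were seen. The NRF1 letters were shortened by 1 base after a first count, and both counts are given. MRP63 is listed as MRPL57 and counted as a member.

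Alternatives were the likelihood-ratio test, DESeq2 1.42.0, RLE factors, library size alone, no filter, a minimum of 10 counts per sample, the longest transcript, a length offset, a replicate block, each sample left out and subunits by structure. After seeing the data, offsets for length and GC content were added, alone and together with the block.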

Additional observations from a re-analysis of the deposited data

How the results depend on the processing

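The members' median log2 fold change stayed below 0 under every alternative run, and their summed level stayed lower after knock-down wherever it was computed. The median was -0.46 on library size alone, which moved the median of all genes to -0.12, -0.15 with the length offset, and -0.11 with length and GC offsets, without or with the block. The summed level ratio was 0.741 on library size alone and 0.893 with the length offset. Higher members numbered 16 with the length offset, 17 with length and GC offsets and 16 with these and the block. The shares of all genes that were higher were 37.7%, 38% and 37.6% in the same order. Under the stricter rule, 38 members were lower with the likelihood-ratio test and with no filter, 13 with the length offset and 11 with the replicate block, instead of 23. Higher members under that rule were 5 with the likelihood-ratio test and with no filter and 6 with the length offset and with length and GC offsets, without or with the block, instead of 3. The share of all genes under the stricter rule was computed for the main fit alone, so counts under the alternatives cannot be set against it. The subunit difference was 0.11 with the longest transcript, 0.13 by structure, 0.14 with the length offset, 0.19 with length and GC offsets and 0.19 with the block added. The length offset turned the sign of 11 of the 77 members, 3 of them called, and length and GC offsets that of 12, 4 of them called, without or with the block. Library size alone turned 6 and the minimum of 10 counts 2, none of them called. Among the named members, the length offset reversed MRPL33 (0.0647), MRPL43 (0.0586), MRPL52 (0.0205), MRPS18C (0.0478) and MRPS30 (0.0765). Length and GC offsets reversed, among the named members, MRPL33 (0.0484), MRPL43 (0.0826), MRPS12 (0.0127), MRPS18C (0.0738), MRPS25 (-0.0105) and MRPS30 (0.152), and with the replicate block these were 0.0475, 0.0830, 0.0126, 0.0801, -0.0109 and 0.153. Among the other uncalled members, MRPL36 (0.21, adjusted p = 0.00145) and MRPS34 (0.14, adjusted p = 0.00662) were higher with length and GC offsets. The cause of these differences was not tested. Of the 53 lower and 7 higher members, 39 and 6 were called the same way under all alternatives.

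With a sample left out, lower members numbered 48 to 55, higher members 6 to 10, lower and higher members under the stricter rule 11 to 28 and 2 to 4, and all genes called 10004 to 10314. The median ranged from -0.36 to -0.32, the subunit difference from 0.11 to 0.17 and the summed ratio from 0.789 to 0.817. The 11 and 13 lower members under the stricter rule came without siKMT9α#1 replicate 2 and without siControl replicate 2.

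Replicate numbers shared between groups did not mark samples that deviated alike (correlations of -0.08, 0.02 and -0.08), so the numbers were not taken as pairs. With the replicate block, 52 members were lower and 6 higher, with a median of -0.35.

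Limits are the 3 samples per group, the single siRNA, and levels relative to all mRNA, so a change in total mRNA per cell would not be seen. mRNA levels do not give ribosome assembly or mitochondrial translation. Spans that overlap other genes (MRPS7 with GGA3 and MIF4GD, MRPS24, MRPS16, MRPL3 and others) can hold their reads. Length and GC content were not separated from the knock-down.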
